A study of Mus musculus with 21 samples.

Results

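Embryoid bodies of 2 mouse embryonic stem cell lines were compared, one induced to express TWIST1 joined to TCF3 and the other TWIST1 joined to TCF12. The members were the 3 samples titled as the induced TWIST1-TCF3 dimer and the 3 titled as the induced TWIST1-TCF12 dimer, chosen by their titles alone, which made 6 of the 21 samples of the study, with all 48321 genes listed for them. Of these genes 14311 passed a filter on low counts and were tested. Embryoid bodies are aggregates in which embryonic stem cells leave pluripotency and form early embryonic cell types. All lines derive from A2loxCre embryonic stem cells (strain given as C57BL/6), in which a coding sequence had been stably integrated behind a doxycycline-inducible promoter. RNA was taken on day 3 of differentiation, 16 h after induction, and sequenced from mRNA libraries. Both groups compared were treated with doxycycline. The other groups, of 3 samples each, were the doxycycline-treated parental A2loxCre line, the TWIST1 monomer line both untreated and treated with doxycycline, the TWIST1-TWIST1 homodimer line with doxycycline and the TWIST1-TCF4 dimer line with doxycycline. Each construct is represented by 1 line, which may be 1 clone, so the construct and the line cannot be told apart. The labels do not say whether the 3 samples of a group came from separate cultures, and p-values measure only the spread between samples of the same group. That spread was estimated jointly over all groups of a fit, thus over all 21 samples unless a fit of fewer is named. The labels also do not give the species of the integrated coding sequences.

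Proteins of the basic helix-loop-helix class pair up before they bind DNA, at short sequences called E-boxes. TWIST1 is such a factor, and pairs either with a second TWIST1 or with an E-protein, of which TCF3, TCF4 and TCF12 are the main ones. It is known for its roles in mesoderm, the cranial neural crest and the epithelial-to-mesenchymal transition. E-proteins are made by most cells, and Id proteins, which lack the DNA-binding region, keep them from forming active dimers.

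Levels of the construct genes were used to check the labels, and neither partner gene passed as higher in the libraries named after it. Twist1 was at 56.6, 52.3 and 56.5 CPM (counts scaled to library size) in the libraries labelled TCF3 dimer and at 39.5, 48.3 and 39.0 CPM in those labelled TCF12 dimer, against 8.11 ± 0.79 CPM (SD, n = 3) in the parental line. The groups did not overlap, and the log2 fold change, always the TCF3-labelled minus the TCF12-labelled libraries, was 0.38 ± 0.10 SE (edgeR adjusted p 0.0098, and 0.26 when these 6 libraries were fitted alone). Without TCF12 library 1 the log2 fold change was 0.33 (edgeR adjusted p 0.0040). Tcf3, the partner named in the first label, was at 150.8, 152 and 159 CPM in the libraries labelled TCF3 dimer and at 189.9, 170.2 and 165 CPM in those labelled TCF12 dimer. The groups did not overlap and the TCF12-labelled libraries were the higher ones, against the direction of the labels and without passing the test (log2 fold change -0.18 ± 0.07 SE, edgeR adjusted p 0.069), and with DESeq2 or without TCF12 library 3 this difference passed in the same direction. Tcf12 was at 120.2, 91.3 and 102 CPM against 53.2, 118 and 108 CPM, and the groups overlapped (log2 fold change 0.16 ± 0.18 SE, edgeR adjusted p 0.55). The sign of this value rested on TCF12 library 1, the lowest, while TCF12 libraries 2 and 3 lay within the range of the TCF3-labelled ones. The median log2 fold change of the 4 construct genes was 0.11, or -0.13 without TCF12 library 1. All directions below are therefore those of the labels. Both groups expressed epiblast genes, with Pou5f1 between 396 and 769.9 CPM and Fgf5 between 41.7 and 94.4 CPM over the 6 libraries, whereas T (brachyury) of the primitive streak was between 0.839 and 1.89 CPM, against a mean of 26.1 CPM in the parental line.

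Total counts lay between 11028711 and 12138654 in the 6 libraries, and 3 counts, taken as the lowest level a library can show, corresponded to 0.247 to 0.272 CPM. TCF12 library 1 stood apart from all others by transcript length. With genes ranked by transcript length into 3 classes of equal size, the short ones deviated in it from the mean of its 2 replicates by a median log2 of 0.56 and the long ones by -0.55, and genes of ribosomal proteins took 14.0% of its counts against 6.70% to 7.22% in the other 5 libraries. Chi-square per degree of freedom was 94.5 and 116 between this library and its replicates, against 3.77 between TCF12 libraries 2 and 3. Every result was therefore computed from a fit of all 21 libraries and again from 20 libraries without it, and a gene is said to pass where it passed in both with the same direction. In bulk RNA, fewer cells of a type and less RNA per cell cannot be told apart. The tables of the 3 TCF12-labelled libraries also differ from the other 18 in how some gene symbols were stored, a difference in handling that cannot be told apart from the group.

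**Figure D1:**
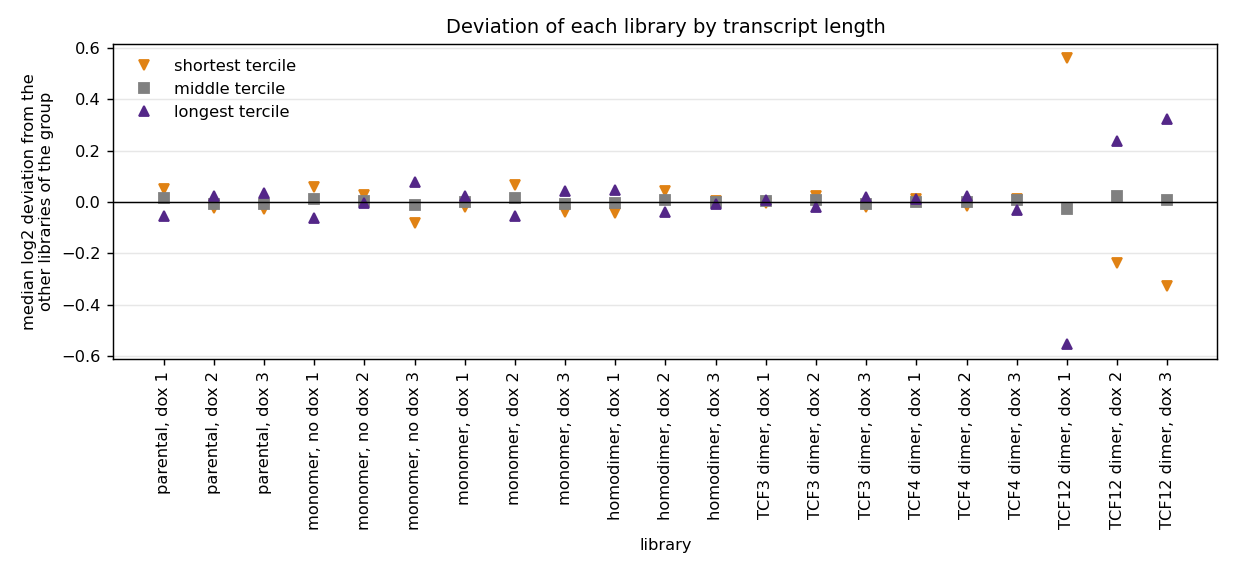
Median deviation of genes with short, middle and long transcripts (3 classes of equal size) (log2 CPM of a library minus the mean of the other libraries of its group, vertical axis) in each library. TCF12 library 1 has its short genes at 0.56 and its long genes at -0.55, and TCF12 libraries 2 and 3 mirror it because they are set against a mean that includes it.

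The TCF3-labelled and TCF12-labelled libraries differed at 2107 of the 14311 tested genes (14.7%), of which 1215 were higher (8.49%) and 892 lower (6.23%) in the TCF3-labelled libraries. No gene passed in opposite directions. Most of these differences were small, with a median absolute log2 fold change of 0.47, but the large ones lay almost all on one side. At least a doubling in both fits was seen for 339 genes higher in the TCF3-labelled libraries (2.37%) and for 41 lower (0.286%). The CPM of the 3 libraries on each side did not overlap for 2000 of the 2107 genes, beside 15.7% of all tested genes whose 3 TCF3-labelled libraries lay above all TCF12-labelled ones and 13.1% for the reverse. The fit of 21 libraries alone called 2686 genes (18.8%), 1390 higher (9.71%) and 1296 lower (9.06%), and that of 20 libraries 3607 (25.0%), 1822 higher (12.6%) and 1785 lower (12.4%). Leaving out TCF3 library 1, 2 or 3 gave 1750, 1649 or 1455 genes and leaving out TCF12 library 2 or 3 gave 3708 or 4986. Counts within the lists below are to be read beside the shares over all genes, 8.49% higher and 6.23% lower. Those from fits without a library are to be read beside the totals of these fits. The split by direction differed between settings. RLE factors gave 1387 higher and 1331 lower, scaling by library size alone gave 1608 higher and 768 lower, removing each library's trend with transcript length gave 625 higher and 201 lower, and fitting only the 6 libraries gave 223 higher and 13 lower. Fitting these libraries without TCF12 library 1 gave 1735 higher and 1359 lower. Values below from only the 6 libraries include TCF12 library 1. Of the genes passing in both fits, the class of short transcripts held 216 higher and 335 lower and that of long ones 530 higher and 179 lower. In the fit of 20 libraries the balance was the opposite, with 568 higher and 391 lower among short and 602 higher and 723 lower among long transcripts. Requiring the fit of 21 libraries thus keeps part of the length pattern of TCF12 library 1.

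**Figure D2:**
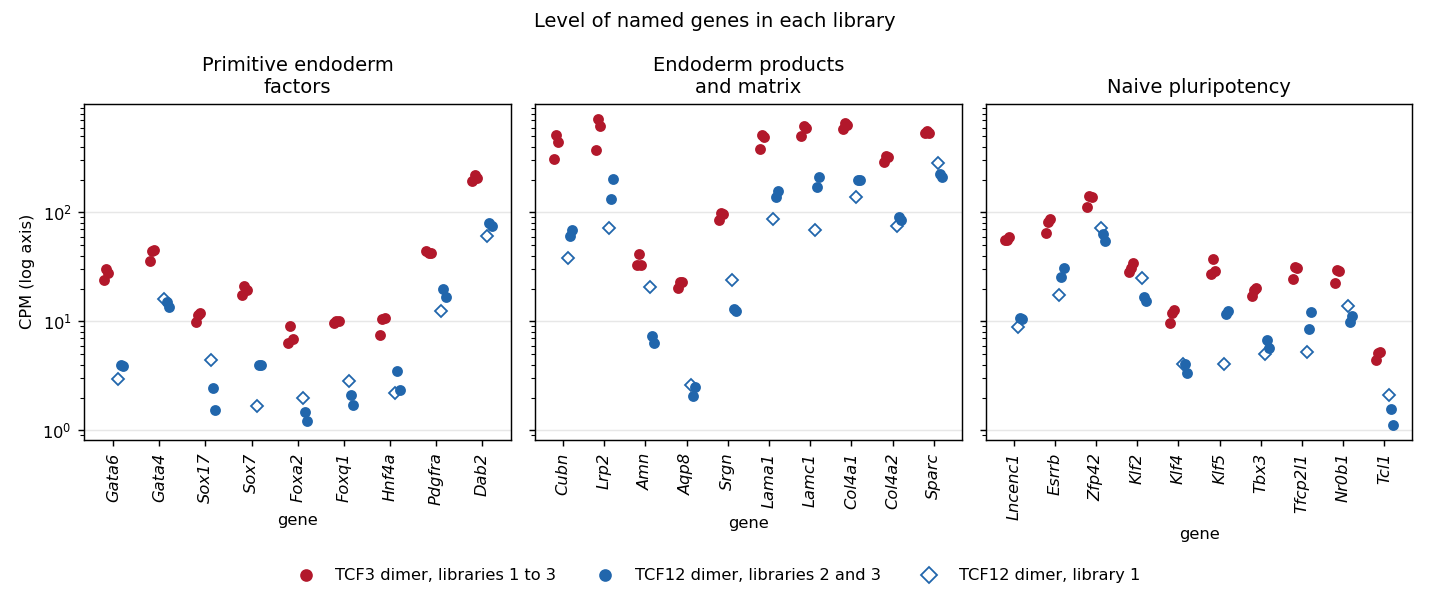
CPM (log axis) of genes named in the text in each of the 6 libraries, with TCF12 library 1 drawn as an open symbol. For the primitive endoderm genes drawn, every TCF3-labelled library lies above every TCF12-labelled one.

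Nearly all tested genes of one list were higher in the TCF3-labelled libraries, that of primitive endoderm factors. Primitive endoderm is the extraembryonic lineage that separates from the epiblast in the blastocyst and gives rise to visceral and parietal endoderm of the yolk sac. Of 12 listed genes, which besides transcription factors include Pdgfra and Dab2, 11 were tested and 10 were higher in the TCF3-labelled libraries. The median log2 fold change of the 11 was 2.04 in the fit of 21 libraries and 2.28 in that of 20, against -0.01 in both over all tested genes. The same 10 of 11 passed when only the 6 libraries were fitted and when the length trend was removed. Gata6, a zinc finger factor that starts the lineage, was at 23.7, 30.2 and 27.8 CPM in the TCF3-labelled libraries and at 2.94, 4.02 and 3.87 CPM in the TCF12-labelled ones. The lowest TCF3-labelled library was far above the highest TCF12-labelled one, and the log2 fold change was 2.90 ± 0.16 SE (edgeR adjusted p 6.8e-10), or 2.77 ± 0.16 (2.8e-14) without TCF12 library 1. Gata4, which acts with Gata6, was at 36.0, 44.5 and 45.3 CPM against 16.0, 15.0 and 13.5 CPM (1.50 ± 0.11 SE, edgeR adjusted p 3.6e-08).

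Sox7 and Sox17, HMG-box factors that follow Gata6 in the lineage, were at 17.4, 21.1 and 19.5 CPM against 1.68, 3.94 and 3.95 CPM, and at 9.92, 11.5 and 12.04 CPM against 4.41, 2.46 and 1.53 CPM. Both pairs of groups did not overlap, although the 2 genes placed TCF12 library 1 at opposite ends of its group. Their log2 fold changes were 2.56 ± 0.22 and 2.04 ± 0.21 SE (edgeR adjusted p 1.5e-07 and 2.2e-06). The forkhead genes Foxa2 and Foxq1 differed by 2.26 ± 0.26 and 2.18 ± 0.15 SE (edgeR adjusted p 6.4e-06 and 8.5e-09). A further 3 that passed, Hnf4a, Dab2 and the PDGF receptor Pdgfra, a surface marker of the lineage, lay between 1.39 and 1.81 in the fit of 21 libraries. They are named here after their values were seen. Without TCF12 library 1 Pdgfra was at 1.22, the smallest of the 10 passing genes of the list. Foxa1 went the other way without passing, at 0.744, 0.883 and 0.651 CPM against 1.15, 1.23 and 1.53 CPM (edgeR adjusted p 0.12).

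Summed over all listed genes, primitive endoderm transcripts were at 364, 422 and 399 CPM in the TCF3-labelled libraries and at 109.5, 136 and 123 CPM in the TCF12-labelled ones. The sum of the TCF12-labelled libraries lay close to those of the TCF4 dimer line (100.3 to 105 CPM) and the homodimer line (121 to 139.9 CPM). The TCF3-labelled libraries lay above the parental line (195 to 216 CPM) and below the monomer line, which held 643 to 741 CPM without doxycycline and 585 to 643 CPM with it. The level in the monomer line was therefore as high without induction as with it.

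**Figure D3:**
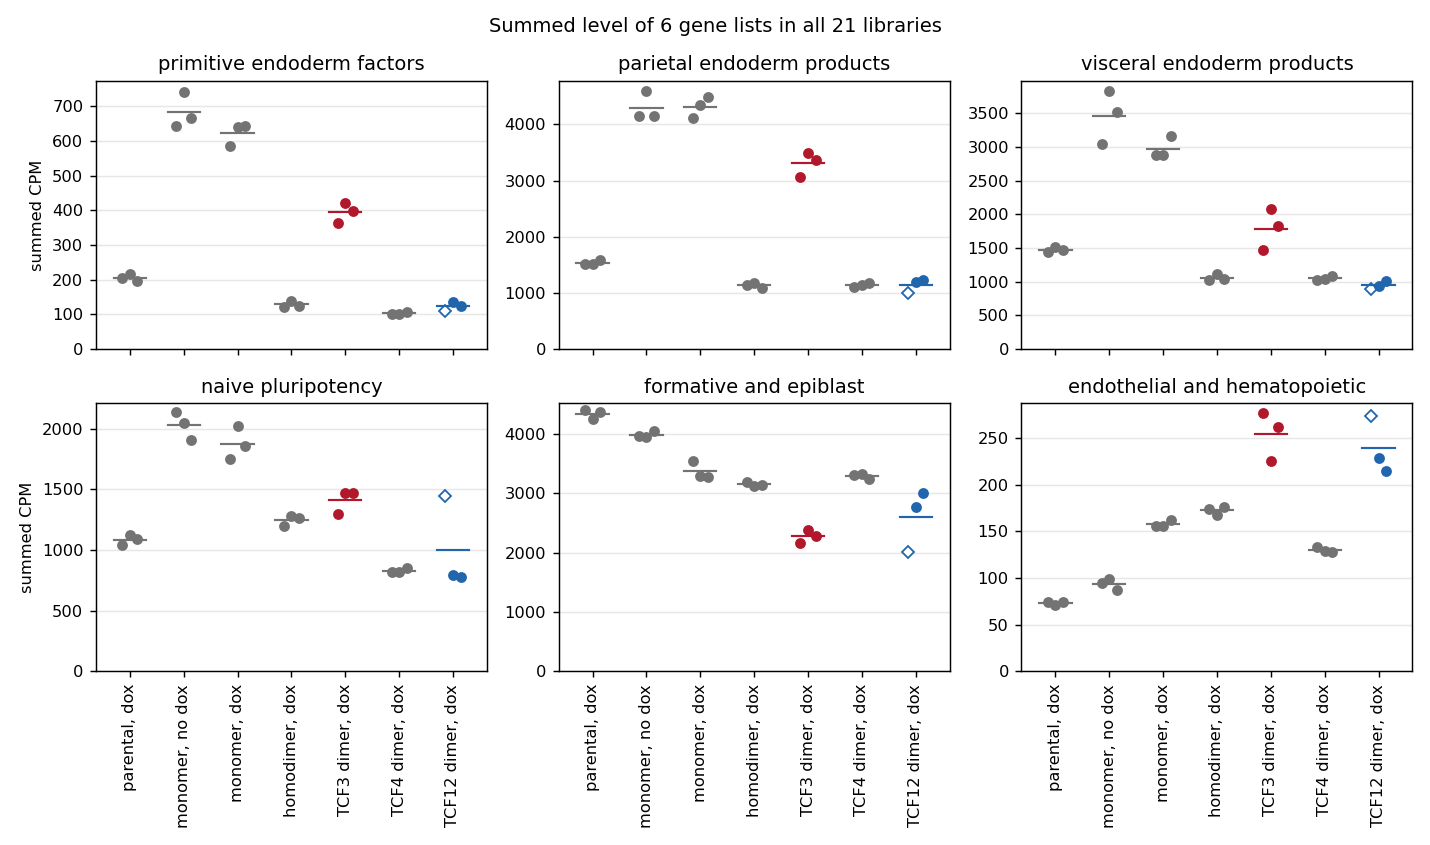
Summed CPM (vertical axis) of 6 gene lists in all 21 libraries, by group. Primitive endoderm factors are at 364 to 422 CPM in the TCF3-labelled and 109.5 to 136 CPM in the TCF12-labelled libraries, and highest in the monomer line with and without doxycycline.

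Products of parietal endoderm, which secretes the thick basement membrane beneath the trophoblast, were higher in the TCF3-labelled libraries for 11 of 15 genes and lower for none, with a median log2 fold change of 1.30 (7 of the 15 passed when only the 6 libraries were fitted). Their summed level was 3056, 3493 and 3374 CPM against 990, 1187 and 1226 CPM. Col4a1 and Col4a2 encode the chains of type IV collagen and sit head to head on chromosome 8 (chr8:11198423-11312826 on the minus strand and chr8:11312805-11449287 on the plus strand). They overlap at their starts, where reads cannot be assigned without strand information. Col4a2 was at 291, 327 and 322 CPM against 74.5, 90.3 and 84.3 CPM (log2 fold change 1.92 ± 0.09 SE, edgeR adjusted p 4.8e-11), and Col4a1 at 581, 656 and 634 CPM against 139.6, 200.03 and 198 CPM (1.80 ± 0.11 SE, 1.7e-09).

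The laminin chains that make up laminin-111 followed the same order. Lama1 was at 383, 511 and 491 CPM against 86.3, 138 and 156 CPM, Lamb1 at 389.5, 425 and 418 CPM against 159.9, 195 and 209.5 CPM, and Lamc1 at 499.7, 618 and 588 CPM against 68.9, 172 and 212 CPM. In each of them TCF12 library 1 was the lowest, and without it the log2 fold changes were 1.64 ± 0.09, 1.02 ± 0.06 and 1.56 ± 0.08 SE (edgeR adjusted p 4.7e-15, 1.5e-14 and 1.6e-15). For Lamc1 the adjusted p was 0.069 when only the 6 libraries were fitted. Sparc, a collagen-binding matrix protein, was at 532, 554 and 533 CPM against 283, 224 and 212 CPM (1.17 ± 0.09 SE, edgeR adjusted p 7.5e-08). Srgn, the proteoglycan serglycin, showed the largest difference of the list, at 84.3, 98.8 and 96.9 CPM against 24.0, 13.1 and 12.4 CPM (2.52 ± 0.18 SE, and 2.87 ± 0.12 without TCF12 library 1). Pth1r, the receptor for parathyroid hormone-related peptide that marks parietal endoderm, was at 32.3, 28.2 and 30.4 CPM against 17.4, 9.93 and 10.1 CPM (1.30 ± 0.15 SE, edgeR adjusted p 5.9e-06), and 0.066 with only the 6 libraries. In the wider list of basement membrane genes 11 of 21 tested were higher and none lower, but 5 of 21 with only the 6 libraries.

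Of 20 tested products of visceral endoderm, which takes up and transports nutrients, 8 were higher and 1 (Emb, named after its value was seen) was lower. The median log2 fold change was 0.60, or 0.80 without TCF12 library 1, when 12 rather than 8 members were called higher in that fit. With only the 6 libraries 1 member, Cubn, passed, while without TCF12 library 1 among these 11 were higher and 1 lower. With the length trend removed 10 passed. In both fits Cubn had the largest difference of the list. Cubilin and amnionless, the subunits of an endocytic receptor, are encoded by Cubn (chr2:13276338-13491813, minus strand) and Amn, and its partner megalin by Lrp2.

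Cubn was at 306, 516 and 438 CPM in the TCF3-labelled libraries and at 37.8, 61.1 and 69.4 CPM in the TCF12-labelled ones, a log2 fold change of 2.90 ± 0.20 SE (edgeR adjusted p 9.1e-09). Lrp2 was at 376, 719 and 615 CPM against 71.6, 131 and 201 CPM (2.08 ± 0.26 SE, edgeR adjusted p 1.8e-05, and 0.065 with only the 6 libraries). Amn was at 32.6, 41.8 and 33.1 CPM against 20.7, 7.38 and 6.30 CPM (1.68 ± 0.26 SE, edgeR adjusted p 0.00020, and 0.17 with only the 6 libraries). For all 3 genes TCF3 and TCF12 libraries were separate, and TCF12 library 1 was lowest for the long transcripts Cubn and Lrp2 and highest for Amn. Rhox5 and the hedgehog ligand Ihh differed by 1.90 ± 0.24 and 1.93 ± 0.28 SE (edgeR adjusted p 2.3e-05 and 8.4e-05). Cer1, Lefty1 and Hhex (named after its value was seen) also passed as higher, Cer1 near the detection limit. The other products except Emb did not pass in both fits or could not be tested. Apob, an apolipoprotein, was at 17.9, 36.4 and 30.2 CPM against 12.2, 18.1 and 26.2 CPM (edgeR adjusted p 0.16), Apoa1 at 0.323 to 1.15 CPM in the 6 libraries, and 6 members including Afp, Fga and Fgb were too low to be tested.

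Because TWIST1 dimers bind E-boxes, the sequences before the start sites of 5 genes with differences in either direction are shown, as RefSeq gives them for GRCm38.p6, 5′ to 3′ on the strand of the gene. Each holds the 250 bases before the start, and capitals mark every match to CANNTG, where N is any base (the pattern reads the same on both strands). The genes are Cubn (chr2:13491877-13492126, minus strand), the naive pluripotency genes Klf4 (chr4:55532476-55532725, minus strand) and Lncenc1 (chr13:97434720-97434969, plus strand), all higher in the TCF3-labelled libraries, and Nnat (chr2:157559828-157560077, plus strand) and Msx1 (chr5:37824586-37824835, minus strand), both lower.
Cubn: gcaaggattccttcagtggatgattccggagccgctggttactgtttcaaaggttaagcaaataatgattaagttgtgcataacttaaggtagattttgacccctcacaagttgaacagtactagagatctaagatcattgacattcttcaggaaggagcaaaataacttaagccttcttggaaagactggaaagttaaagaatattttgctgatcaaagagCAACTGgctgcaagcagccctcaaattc
Klf4: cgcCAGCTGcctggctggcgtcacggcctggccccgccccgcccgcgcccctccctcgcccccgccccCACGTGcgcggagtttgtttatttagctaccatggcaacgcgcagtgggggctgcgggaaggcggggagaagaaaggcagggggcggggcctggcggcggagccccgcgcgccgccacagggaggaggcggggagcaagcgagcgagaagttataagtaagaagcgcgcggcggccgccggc
Lncenc1: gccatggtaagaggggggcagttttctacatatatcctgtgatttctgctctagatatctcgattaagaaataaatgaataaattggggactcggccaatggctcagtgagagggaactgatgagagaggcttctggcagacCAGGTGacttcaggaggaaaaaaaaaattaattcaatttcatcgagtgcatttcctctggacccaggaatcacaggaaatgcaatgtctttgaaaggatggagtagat
Nnat: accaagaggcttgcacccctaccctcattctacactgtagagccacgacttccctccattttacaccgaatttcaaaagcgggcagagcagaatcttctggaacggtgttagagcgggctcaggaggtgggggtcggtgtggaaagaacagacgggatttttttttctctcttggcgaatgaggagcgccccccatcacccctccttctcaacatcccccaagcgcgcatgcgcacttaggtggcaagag
Msx1: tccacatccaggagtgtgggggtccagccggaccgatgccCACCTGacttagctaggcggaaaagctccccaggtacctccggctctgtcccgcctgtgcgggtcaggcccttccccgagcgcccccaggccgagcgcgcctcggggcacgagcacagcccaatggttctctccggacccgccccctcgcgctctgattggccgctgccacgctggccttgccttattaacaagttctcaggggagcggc
The match before Cubn is CAACTG, that before Lncenc1 CAGGTG and that before Msx1 CACCTG, those before Klf4 are CAGCTG and CACGTG, and the Nnat window holds none. Such matches are common: a CANNTG was present in 56.9% of the 10331 tested genes with a promoter in the table. It was present in 56.6% of 929 genes passing as higher in the TCF3-labelled libraries and in 57.5% of 669 passing as lower. Over all 27025 promoters of the table the share was 66.0%. Among tested genes with at least a doubling it was 66.5% (165 of 248) for those higher and 71.0% (22 of 31) for those lower, above the 56.9% of all tested genes. CAGCTG alone was found in 11.6% of tested, 13.6% of higher and 10.01% of lower genes and in 17.3% of the 248 higher by at least a doubling, and CACGTG in 8.66%, 7.10% and 10.3%. CAGATG and its reverse complement CATCTG, a pair often named for TWIST1, were found in 9.66%, 10.3% and 9.42%. A match is a string of letters and not a measured site.

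Genes of naive pluripotency, the state of cells before they move towards the epiblast of the implanted embryo, were higher in the TCF3-labelled libraries for 17 of 22 and lower for none, with a median log2 fold change of 1.30 (1.34 without TCF12 library 1). When only the 6 libraries were fitted 9 of 22 passed, or 18 without TCF12 library 1 among them, and with the length trend removed 18. Lncenc1 (chr13:97434970-97497007, plus strand), a long noncoding RNA of naive cells, had the smallest p of all genes in the fit of 21 libraries. It was at 55.2, 55.6 and 59.0 CPM against 8.92, 10.8 and 10.6 CPM (log2 fold change 2.48 ± 0.09 SE, edgeR adjusted p 4.0e-12). The TCF3-labelled libraries were also above the parental line, the TCF4 dimer line and the monomer lines, whose group means lay between 10.3 and 21.7 CPM.

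The reprogramming factor Klf4 (chr4:55527143-55532466, minus strand) was at 9.67, 11.9 and 12.6 CPM against 4.09, 4.10 and 3.39 CPM (log2 fold change 1.56 ± 0.17 SE, edgeR adjusted p 2.5e-06). Tbx3, a T-box factor that is expressed in both naive cells and primitive endoderm, was at 17.0, 19.2 and 20.4 CPM against 5.04, 6.81 and 5.73 CPM (1.68 ± 0.11 SE, 8.5e-09). Both genes separated the groups without an outlying library. Tcl1, a cofactor of AKT signalling, differed by 1.64 ± 0.24 SE (edgeR adjusted p 9.8e-05). Prdm14, a repressor of FGF signalling and of DNA methylation in naive cells, was near the detection limit, with 43 counts in the TCF3-labelled libraries (10, 22 and 11) and 2 in the TCF12-labelled ones (1, 1 and 0), a ratio of 20.5 with a 95% exact interval of 5.35 to 175 for counting error only. Esrrb and Zfp42, named after their values were seen, were at 65.0, 81.7 and 86.5 against 17.6, 25.8 and 30.7 CPM and at 111, 139.997 and 137 against 72.3, 63.8 and 54.5 CPM.

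Nanog did not share this order, at 47.1, 65.3 and 58.4 CPM against 42.8, 59.8 and 69.6 CPM (log2 fold change -0.02 ± 0.14 SE, edgeR adjusted p 0.95), while its mean in the parental line was 210.4 CPM. Dppa5a, a short transcript, was at 560.2, 591 and 595 CPM against 957, 340.1 and 315 CPM. TCF12 library 1 alone placed it on the other side, and without that library Dppa5a passed (0.82 ± 0.07 SE, edgeR adjusted p 1.8e-10). For the same reason the summed naive list was at 1295, 1473 and 1468 CPM against 1444, 790 and 774 CPM. Markers of primitive endoderm moved in the same direction as the naive genes, by the sums given above, and their part in the naive differences was not tested.

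Core pluripotency factors, which are shared by naive and epiblast cells, moved less and mostly the other way. Lin28a, Sall4, Pou5f1 and Dppa4, 4 of 11, were lower (36.4%, against 6.23% over all genes). Tdgf1, the Nodal coreceptor, was higher (9.09%, against 8.49%). The median log2 fold change of the 11 core factors was -0.17, and none passed when only the 6 libraries were fitted or when the length trend was removed. Leaving out TCF3 library 1 left 2 lower and 2 higher, with Pou5f1 and Dppa4 at edgeR adjusted p 0.051 and 0.088, and Tdgf1 was at 0.067 and 0.089 without TCF3 library 2 and library 3. Sall4, a zinc finger factor, was at 189.6, 184 and 198 CPM against 263, 242 and 245 CPM (-0.39 ± 0.06 SE, edgeR adjusted p 0.00015). Pou5f1, which encodes OCT4, was at 396, 437 and 426 CPM against 769.9, 493 and 508 CPM, and the difference shrank from -0.49 ± 0.12 to -0.26 ± 0.06 SE without TCF12 library 1 (edgeR adjusted p 0.0090 and 0.0019).

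Among 16 genes of the formative state and the epiblast, which follows the naive state, 5 were lower (31.25%) and 1 was higher (6.25%) in the TCF3-labelled libraries. Over all genes the shares were 6.23% lower and 8.49% higher. The higher gene of this list was Dnmt3l, a cofactor of DNA methylation, at 0.45 ± 0.14 SE (edgeR adjusted p 0.035). Its adjusted p lay between 0.056 and 0.16 without TCF3 library 2, TCF3 library 3, TCF12 library 2 or TCF12 library 3. Fgf5, the ligand that marks the epiblast after implantation, was at 41.7, 55.4 and 48.6 CPM against 72.1, 82.9 and 94.4 CPM (log2 fold change -0.78 ± 0.10 SE, edgeR adjusted p 2.9e-05). Fgf15 was at 17.2, 13.9 and 15.1 CPM against 33.1, 28.7 and 30.4 CPM (-0.99 ± 0.12 SE, 6.9e-06), and Foxd3 at 29.4, 32.6 and 37.2 CPM against 53.9, 53.7 and 49.8 CPM (-0.67 ± 0.09 SE, 2.8e-05). All 3 separated the groups. Fgf15 also passed with only the 6 libraries (edgeR adjusted p 0.023), while Fgf5 and Foxd3 did not (0.069 and 0.066).

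**Figure D4:**
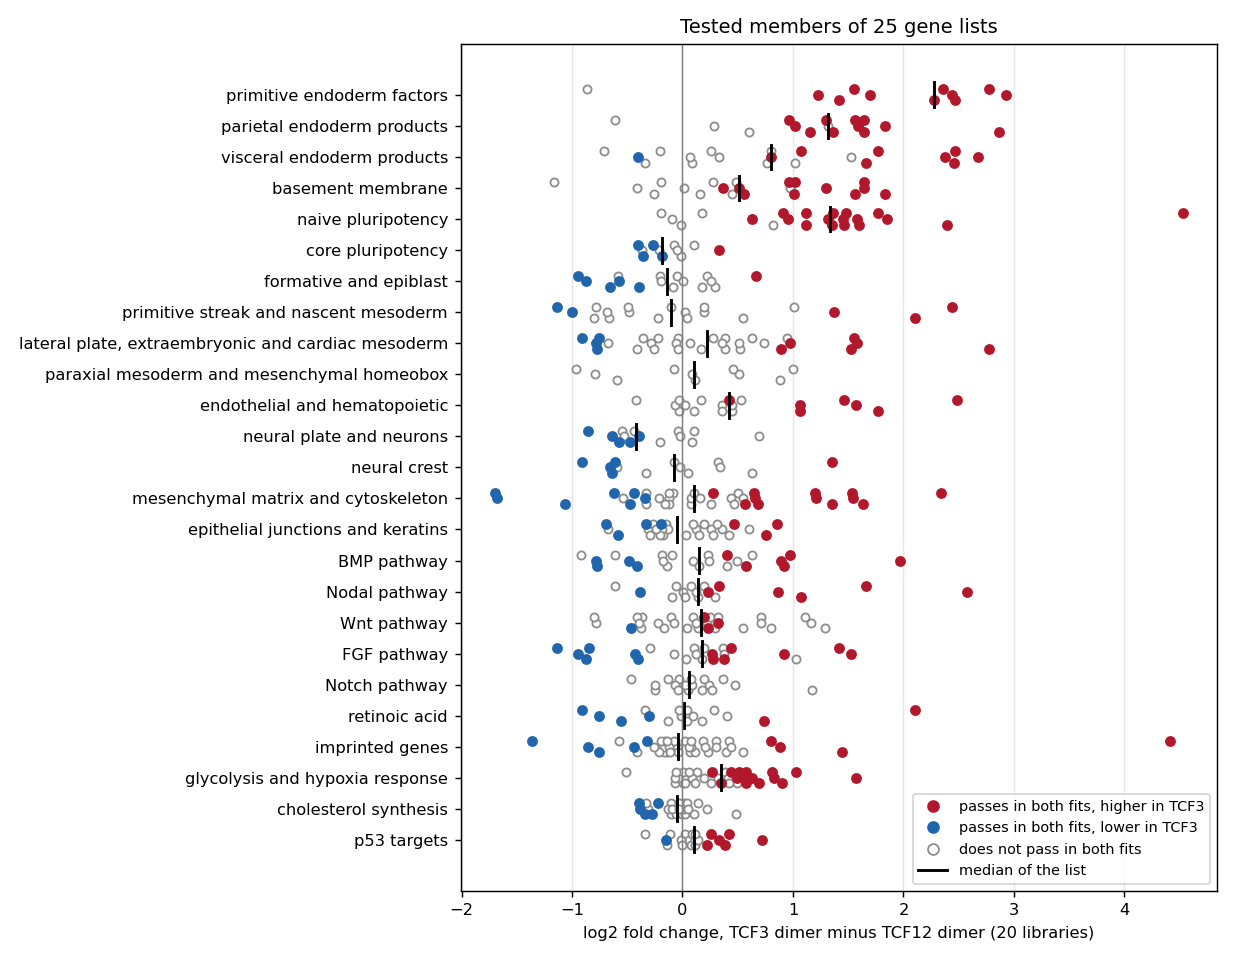
Log2 fold change (TCF3-labelled minus TCF12-labelled libraries, fit of 20 libraries, horizontal axis) of the tested members of 25 gene lists, 1 point per gene, with the median of each list as a bar. Primitive endoderm factors have a median of 2.28 and naive genes of 1.34, and most other lists are centred near 0.

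Genes of mesoderm, the lineage most often linked to TWIST1, passed in both directions. Of 19 tested genes of the primitive streak 3 were higher (15.8%) and 2 lower (10.5%), against 8.49% and 6.23% over all genes. The lower count of the fit was 4 without TCF12 library 1 or TCF12 library 3 and 1 without TCF3 library 1 or TCF3 library 3. The higher ones, Foxa2, the retinoic acid-degrading enzyme Cyp26a1 and Lhx1, are also expressed in extraembryonic endoderm. Cyp26a1 was at 13.1, 17.3 and 12.7 CPM against 6.40, 3.20 and 3.39 CPM and Lhx1 at 7.19, 7.86 and 6.26 CPM against 3.15, 2.95 and 2.50 CPM (log2 fold changes 1.76 ± 0.21 and 1.31 ± 0.21 SE, edgeR adjusted p 9.1e-06 and 0.00022). The defining streak genes did not pass: T was at 1.57, 1.68 and 1.55 CPM against 0.839, 1.89 and 0.888 CPM (edgeR adjusted p 0.41), and Mixl1 at 2.56, 1.94 and 1.87 CPM against 1.78, 3.12 and 2.82 CPM (0.43). Eomes, at 9.59, 14.1 and 13.1 CPM against 11.02, 17.97 and 20.6 CPM, passed only without TCF12 library 1 (edgeR adjusted p 0.00023, against 0.081 with it).

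Of 30 tested genes of lateral plate, extraembryonic and cardiac mesoderm 6 were higher (20%) and 4 lower (13.3%), and 3 of the 6, Gata4, Gata6 and Tbx3, are the endoderm genes above. Bmp4, a ligand of the pathway that induces this mesoderm, was at 18.6 ± 1.3 CPM against 11.8 ± 3.7 CPM (SD, n = 3 each; log2 fold change 0.67 ± 0.17 SE, edgeR adjusted p 0.012, and 0.31 with only the 6 libraries). The homeobox gene Msx1, a target of BMP signalling, was at 7.61, 4.41 and 4.64 CPM against 14.6, 9.93 and 9.20 CPM (edgeR adjusted p 0.0032, and 0.19 with only the 6 libraries). Hand1, named after its value was seen, was at 7.19, 2.56 and 3.66 CPM against 16.8, 10.0 and 5.09 CPM, and its groups overlapped. In the fit of 21 libraries 5 members were lower, but 2 without TCF3 library 2 and 1 without TCF3 library 3. None of 10 tested genes of paraxial mesoderm and mesenchymal homeobox genes passed in both edgeR fits, while 3 had an unadjusted p under 0.05, DESeq2 called 1 higher, and limma voom and edgeR without TCF12 library 1 each called 1 higher and 1 lower.

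Endothelial and blood genes leaned upwards in the TCF3-labelled libraries, with 7 of 19 higher, none lower and a median log2 fold change of 0.43. With only the 6 libraries 1 of them, Runx1, passed, and without TCF3 library 3 the fit called 5 higher where that of all 21 libraries called 8. Runx1, a factor of blood formation, was at 5.13, 6.53 and 6.42 CPM against 1.26, 0.903 and 1.21 CPM (2.42 ± 0.19 SE, edgeR adjusted p 3.8e-08). Pecam1, an adhesion molecule of endothelium that naive stem cells also carry, was at 11.4 ± 2.7 CPM against 3.99 ± 1.08 CPM (SD, n = 3 each), again with no overlap (1.50 ± 0.23 SE, edgeR adjusted p 0.00014). Cdh5, the endothelial cadherin, was at 8.02, 5.12 and 6.59 CPM against 1.05, 3.12 and 3.15 CPM (1.39 ± 0.28 SE, 0.0020). The receptor Kdr and the pioneer factor Etv2, which start the lineage, did not pass (edgeR adjusted p 0.058 and 0.42), and their levels in both groups, 5.56 to 17.0 CPM and 6.30 to 15.7 CPM, lay above the parental means of 2.17 and 3.08 CPM. The sums of the list overlapped, at 277, 225 and 262 CPM against 273, 229 and 214 CPM.

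Genes of mesenchymal matrix and of the contractile cytoskeleton split within 1 list of 37 tested genes. The 12 that were higher in the TCF3-labelled libraries were matrix proteins and their receptors, such as collagens III and VI, periostin, tenascin C and fibronectin. Among the 7 that were lower were the smooth muscle genes Acta2, Myl9, Tagln, Cnn1 and Tpm1. Removing the length trend left 8 higher and 3 lower, and fitting only the 6 libraries left 4 higher and none lower.

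Col3a1 was at 27.3, 26.7 and 34.7 CPM against 8.29, 10.7 and 8.23 CPM (log2 fold change 1.70 ± 0.21 SE, edgeR adjusted p 1.8e-05), and Col6a1 at 19.6, 21.3 and 23.8 CPM against 8.19, 8.04 and 6.78 CPM (1.49 ± 0.16 SE, 3.1e-06). Tnc, tenascin C, was at 8.68, 13.4 and 15.9 CPM against 3.46, 4.84 and 3.79 CPM (1.64 ± 0.25 SE, edgeR adjusted p 0.00012). These matrix genes separated the groups in all 6 libraries. Myl9 (chr2:156775420-156781658, plus strand), a myosin light chain, was at 1.98, 2.82 and 1.71 CPM against 14.2, 6.65 and 7.18 CPM, and Tagln, the actin-binding protein transgelin, at 5.79, 6.53 and 5.45 CPM against 28.7, 11.8 and 12.8 CPM. For both, TCF12 library 1 was the highest, and without it the log2 fold changes were -1.68 ± 0.21 and -1.07 ± 0.15 SE (edgeR adjusted p 2.7e-07 and 2.3e-06), against 0.053 and 0.12 with only the 6 libraries. Acta2 was low, at 0.827, 0.441 and 0.407 CPM against 2.62, 2.21 and 1.45 CPM (-1.86 ± 0.41 SE, edgeR adjusted p 0.0042).

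Embryonic stem cells are often grown on fibroblasts, so fibroblast markers are given beside the matrix genes. Of 8 tested markers 3 passed as higher, Col1a1, Col3a1 and Postn, all of them matrix genes, and the summed list was at 115, 98.8 and 121 CPM against 86.0, 90.1 and 87.6 CPM. Lum, Fap, Twist2 and S100a4 were too low to be tested. The part of such cells in the matrix differences was not tested. Among 10 tested factors of the epithelial-to-mesenchymal transition Twist1 and Klf8 were higher (20%) and Gsc was lower (10%). For Gsc the edgeR adjusted p was 0.019, and 0.065 and 0.084 without TCF3 library 1 and library 2. No factor of this list passed with only the 6 libraries, with the length trend removed or with only the parental and heterodimer libraries, and 4 were higher without TCF12 library 2. Of 28 epithelial junction genes 3 were higher (10.7%) and 4 lower (14.3%), against 8.49% and 6.23% over all genes. The fit of 21 libraries called 3 higher and 5 lower, against 7 and 8 without TCF12 library 1 and 5 and 7 without TCF12 library 3. It called 3 and 2 without TCF3 library 1, 2 and 2 without TCF3 library 3, 2 and 1 with the length trend removed and 1 and 0 with only the 6 libraries. Jup, the junction protein plakoglobin, was at 162, 165 and 177 CPM against 101, 96.8 and 101 CPM (log2 fold change 0.75 ± 0.06 SE, edgeR adjusted p 6.5e-08), while Cdh1, E-cadherin, was at 706, 767 and 721 CPM against 621, 862 and 949 CPM (0.30).

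Genes of the neural plate and neurons were lower or did not pass in both fits. Of 15 tested genes of the neural plate and neurons 5 were lower (33.3%, against 6.23% over all genes) and none higher (median log2 fold change -0.31). The summed list was at 729, 681 and 703 CPM against 771, 832 and 806 CPM. Nes, the intermediate filament nestin, was at 82.4, 80.1 and 78.1 CPM against 111, 103 and 119 CPM (-0.47 ± 0.08 SE, edgeR adjusted p 0.00034), and Pax6 at 4.96, 2.91 and 3.90 CPM against 6.40, 7.96 and 6.30 CPM (-0.81 ± 0.18 SE, 0.0054). The groups did not overlap for either gene, but with only the 6 libraries no member passed. Without TCF3 library 2 or TCF3 library 3 the fit called 3 lower and none higher. It called 3 lower and 2 higher without TCF12 library 2, and 4 lower and 1 higher without TCF3 library 1. In the neural crest list 4 of 13 were lower (30.8%), and 1 without TCF3 library 2, TCF3 library 3 or TCF12 library 2. Ngfr, the low-affinity neurotrophin receptor, was higher (7.69%). Ngfr was at 53.5, 47.7 and 42.5 CPM against 23.7, 21.8 and 15.4 CPM (1.24 ± 0.16 SE, edgeR adjusted p 1.9e-05), and both groups lay above the parental mean of 2.24 CPM.

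Other helix-loop-helix genes, which include possible partners and competitors of the dimers, held 1 gene passing in each direction of 19 tested (5.26%), Tcf23 higher and Bhlhe41 lower, below the shares over all genes (8.49% and 6.23%). The fit of 21 libraries called 2 higher and 2 lower, but 3 and 1 without TCF12 library 1 and 1 and 5 without TCF12 library 3, and leaving out TCF3 library 2 or 3 gave 1 and 1. Tcf23, which lacks a DNA-binding basic region, was at 9.26, 12.8 and 9.76 CPM against 1.47, 1.80 and 1.69 CPM (log2 fold change 2.66 ± 0.18 SE, edgeR adjusted p 9.1e-09). Bhlhe41, a repressor, was at 9.34, 9.80 and 10.2 CPM against 16.5, 17.9 and 14.2 CPM (-0.73 ± 0.12 SE, 0.00038). Id1, the inhibitor that sequesters E-proteins, was at 402, 270.5 and 307 CPM against 1060.3, 426 and 312 CPM, with a parental mean of 31.5 CPM. It was well above the parental line in all 6 libraries. The difference between the groups passed in the fit of 21 libraries (edgeR adjusted p 0.036) and not without TCF12 library 1 (0.23). Id2 and Id3 did not pass in either fit (edgeR adjusted p 0.10 and 0.16 with all libraries).

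Signalling pathways held members in both directions. In the BMP pathway 6 of 23 were higher (26.1%) and 4 lower (17.4%), and 1 passed with only the 6 libraries. That was Bmper, a secreted modulator of BMP ligands, at 6.12, 5.65 and 6.99 CPM against 0.944, 1.40 and 1.78 CPM (log2 fold change 2.15 ± 0.25 SE, edgeR adjusted p 6.2e-06). The ligands Bmp2 and Bmp4 and the antagonist Grem1 were also higher, while the target Msx1 and the feedback inhibitors Smad7 and Bambi, both named after their values were seen, were lower. In the fit of 21 libraries 5 were lower, but 3 without TCF3 library 2 or TCF3 library 3. Of 17 Nodal pathway genes 6 were higher (35.3%) and Foxh1, the transcription factor of the pathway, was lower (5.88%). However, 2 and 3 were higher without TCF3 library 2 and without TCF3 library 3. Lefty2, a feedback inhibitor of Nodal, was at 44.5, 56.8 and 57.6 CPM against 31.2, 28.7 and 29.0 CPM (0.84 ± 0.09 SE, edgeR adjusted p 3.9e-06). Lefty1 was at 59.0, 69.8 and 71.0 CPM against 67.4, 31.3 and 31.6 CPM, so that TCF12 library 1 overlapped the TCF3-labelled libraries (edgeR adjusted p 0.036, between 0.070 and 0.10 without any 1 of the other 5 libraries except TCF3 library 1, and 7.0e-10 without TCF12 library 1). Nodal itself did not pass (edgeR adjusted p 0.32).

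In the FGF pathway 7 of 23 were higher (30.4%) and 6 lower (26.1%), and the ligands differed in direction. Fgf10 was at 9.42, 9.71 and 11.9 CPM against 2.52, 3.53 and 3.63 CPM (log2 fold change 1.66 ± 0.18 SE, edgeR adjusted p 3.1e-06), opposite in direction to Fgf5 and Fgf15. Fgfr4, a receptor found in endoderm, was at 5.95, 6.71 and 5.45 CPM against 3.04, 2.71 and 1.78 CPM (1.28 ± 0.23 SE, 0.00068), and its co-receptor Klb at 11.6, 15.0 and 13.1 CPM against 0.944, 1.89 and 1.53 CPM (3.14 ± 0.23 SE, 2.1e-08). Fgf10 and Klb also passed with only the 6 libraries (edgeR adjusted p 0.012 and 0.0057) and Fgfr4 did not (0.061). The 4 inhibitors Spred1, Spry1, Spry2 and Spry4 were higher, and Dusp6 and Fgfr1 were lower, with all 6 names chosen after their values were seen. Removing the length trend left 3 FGF genes higher and 2 lower. In the Wnt pathway 3 of 30 were higher (10.0%) and Fzd2 was lower (3.33%), and none passed with only the 6 libraries. The fit of 21 libraries called 4 Wnt genes higher and 2 lower. Without TCF12 library 1 it called 7 higher (23.3%, against 12.6% of all genes in that fit) and 3 lower. It called 6 higher without TCF12 library 2 or 3, and 0, 3 or 2 higher without TCF3 library 1, 2 or 3. In the Notch pathway none of 18 passed in both edgeR fits, while 4 had an unadjusted p under 0.05 with 21 libraries, and DESeq2 and limma voom each called 1 higher. Without TCF12 library 1 edgeR called 2 Notch genes higher (11.1%) and 1 lower (5.56%), against 12.6% and 12.4% of all genes in that fit. Without TCF12 library 3 it called 4 higher and 3 lower, beside 2458 and 2528 of all 14454 genes tested in that fit.

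In the retinoic acid list 2 of 16 were higher (12.5%) and 4 lower (25%), against 8.49% and 6.23% over all genes. The fit called 2 lower without TCF3 library 3 and 7 without TCF12 library 3, beside 440 and 2528 over all genes. Crabp2, a carrier of retinoic acid into the nucleus, was at 18.7, 15.5 and 17.0 CPM against 59.9, 32.6 and 31.5 CPM (log2 fold change -1.27 ± 0.18 SE, or -0.91 ± 0.10 without TCF12 library 1, edgeR adjusted p 9.3e-05 and 2.0e-08). The group that was lower in Crabp2 was thus the one with more Cyp26a1. Of 39 Hox genes 5 reached a testable level. Of these Hoxd13 was lower (edgeR adjusted p 0.017, and 0.12 and 0.065 without TCF3 library 2 and without TCF12 library 2). Among 9 tested trophoblast genes Tead4 and Tfap2c were higher (22.2%), by 1.39 ± 0.17 and 1.16 ± 0.20 SE (edgeR adjusted p 1.0e-05 and 0.00061).

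Among the genes named for the size of their difference, the largest was in H19 (chr7:142575529-142578143, minus strand), an imprinted long noncoding RNA expressed from the maternal allele. It was at 32.4, 19.4 and 27.2 CPM in the TCF3-labelled libraries and at 1.26, 0.985 and 1.45 CPM in the TCF12-labelled ones, a log2 fold change of 4.41 ± 0.28 SE (edgeR adjusted p 5.0e-09, and 0.0026 with only the 6 libraries). The TCF3-labelled libraries stood alone in this, since the means of the other groups lay between 0.847 and 3.08 CPM. Igf2, the neighbouring gene that shares its imprinting control region and is expressed from the paternal allele, was at 26.4, 22.9 and 26.6 CPM against 21.1, 25.6 and 26.5 CPM and did not pass (edgeR adjusted p 0.79). Mest was at 75.6, 77.2 and 82.0 CPM against 12.5, 27.3 and 29.8 CPM (1.74 ± 0.19 SE, edgeR adjusted p 2.6e-06).

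Nnat (chr2:157560078-157562522, plus strand), an imprinted gene of the nervous system, went the other way, at 39.4, 29.7 and 30.9 CPM against 167, 98.0 and 72.6 CPM (log2 fold change -1.75 ± 0.21 SE, edgeR adjusted p 8.2e-06, and 0.054 with only the 6 libraries). Peg10 was at 467, 462 and 532 CPM against 102, 257 and 299 CPM, and Grb10 at 135, 135 and 136 CPM against 146, 237 and 249.8 CPM. In both, TCF12 library 1 was the lowest of its group, and without it the log2 fold changes were 0.80 ± 0.09 and -0.85 ± 0.05 SE (edgeR adjusted p 3.0e-08 and 2.4e-13). Of 40 imprinted genes tested 4 were higher (10.0%) and 5 lower (12.5%), against 8.49% and 6.23% over all genes. Leaving out TCF12 library 3 raised the calls of the fit from 4 higher and 6 lower to 9 and 8. Over all genes it raised them from 1390 and 1296 to 2458 and 2528.

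Genes of the Y chromosome differed together, and the medians over 2 autosomes were shifted. All 3 Y-linked genes that could be tested were higher in the TCF3-labelled libraries: Ddx3y at 29.8, 26.0 and 27.4 CPM against 3.78, 5.66 and 5.89 CPM, Uty at 17.2, 15.4 and 16.6 CPM against 2.62, 3.77 and 3.07 CPM, and Eif2s3y at 37.0, 39.0 and 34.3 CPM against 21.7, 18.9 and 15.4 CPM. The groups did not overlap, and log2 fold changes were 2.42 ± 0.14, 2.36 ± 0.18 and 0.98 ± 0.16 SE (largest edgeR adjusted p 0.00024). Each has a similar copy on the X chromosome, and how shared reads were counted is not stated. Over 735 genes of chromosome 11 with a mean of at least 10 CPM, the median log2 fold change was 0.15 in both fits, while over 526 such genes of chromosome 8 it was -0.20, or -0.17 without TCF12 library 1. These 2 chromosomes were picked for their medians, which are given with no test. The other autosomes and the X chromosome lay between -0.10 and 0.09 in the fit of 21 libraries and between -0.05 and 0.04 without TCF12 library 1. On chromosome 14, at 0.09 and 0.01 in these fits, 87 of 485 tested genes were higher (17.9%).

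On chromosome 11, 228 of 1114 tested genes were higher (20.5%) and 19 lower, and on chromosome 8, 154 of 739 were lower (20.8%) and 32 higher (4.33%). Measured in each library against the mean of all group means, chromosome 11 stood at 0.17, 0.15 and 0.16 in the TCF3-labelled libraries and at 0.04, -0.02 and -0.01 in the TCF12-labelled ones. Chromosome 8 stood at -0.06, -0.07 and -0.08 against 0.19, 0.08 and 0.08. Among the most abundant passing genes of chromosome 8, Mcm5, a helicase subunit of DNA replication, was at 562, 547 and 563 CPM against 786, 712 and 692 CPM (log2 fold change -0.39 ± 0.06 SE, edgeR adjusted p 0.00037). On chromosome 11 P4hb, a protein disulfide isomerase, was at 1079.5, 1033 and 1037 CPM against 949.9, 781 and 789.5 CPM (0.32 ± 0.08 SE, 0.0077). Neither passed with only the 6 libraries. Col4a1, Col4a2, Zfp42 and Klf2 lie on chromosome 8 and were nonetheless higher in the TCF3-labelled libraries, and Jup lies on chromosome 11.

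**Figure D5:**
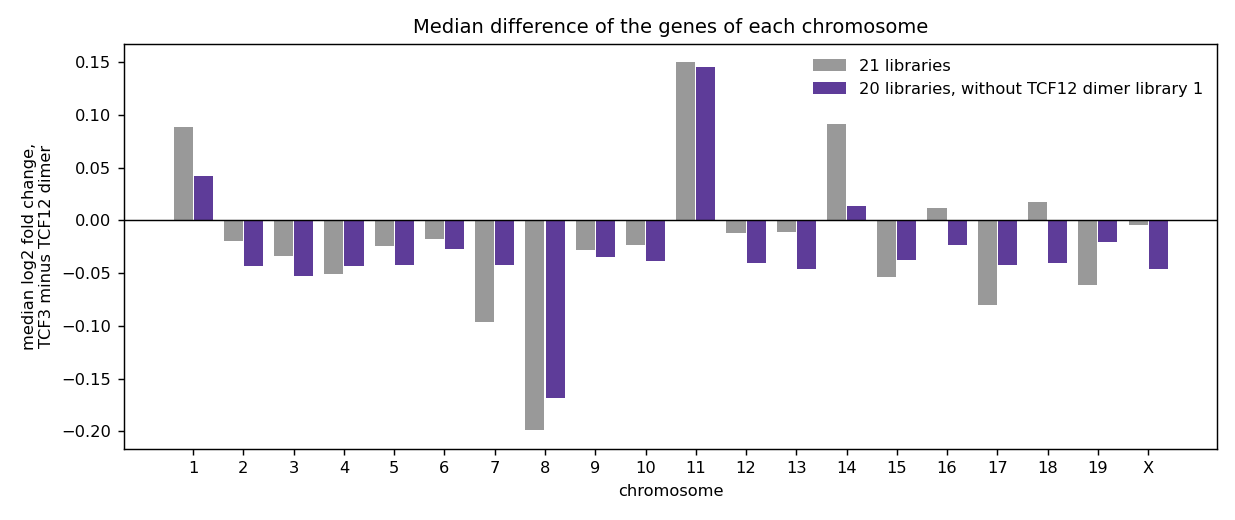
Median log2 fold change (TCF3-labelled minus TCF12-labelled libraries, vertical axis) of genes with at least 10 CPM on each chromosome, in the fits with and without TCF12 library 1. Chromosome 11 is at 0.15 in both and chromosome 8 at -0.20 and -0.17.

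Of 35 tested genes of glycolysis and the response to low oxygen 15 were higher in the TCF3-labelled libraries (42.9%, against 8.49% over all genes) and none lower. The median log2 fold change was 0.19, or 0.35 without TCF12 library 1. In the fit of 21 libraries alone 1 member was lower. The summed list was at 17716, 18394 and 18106 CPM against 23100, 16598 and 15977 CPM, with TCF12 library 1 the highest. Fitting only the 6 libraries left 6 higher, and removing the length trend left 10. Vegfa, the growth factor of blood vessels, was at 10.5, 12.1 and 13.9 CPM against 3.15, 3.61 and 4.52 CPM (1.68 ± 0.16 SE, edgeR adjusted p 8.3e-07), and the glucose transporter Slc2a3 at 434, 549 and 507 CPM against 158, 231 and 255 CPM (1.21 ± 0.13 SE, 4.2e-06). P4ha1 and P4ha2, which hydroxylate collagen, differed by 0.79 ± 0.09 and 0.85 ± 0.09 SE (edgeR adjusted p 2.9e-06 and 3.1e-06), and Pdk1, which holds pyruvate back from the mitochondria, by 0.77 ± 0.10 SE (1.6e-05). The glycolytic enzyme Ldha did not pass, at 1821, 1891 and 1821 CPM against 2759, 1842 and 1768 CPM (edgeR adjusted p 0.23).

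Cholesterol synthesis genes showed small differences, with 5 of 24 lower (20.8%). These were Cyp51, Msmo1, Mvd, Idi1 and Sqle, between -0.39 and -0.22 without TCF12 library 1. Sqle did not pass without TCF3 library 1, TCF3 library 3 or TCF12 library 2 (edgeR adjusted p 0.072 to 0.17), and none of the list passed with only the 6 libraries or with the length trend removed. Of 20 tested p53 targets 6 were higher (30%) and 1 lower (5%), and 1 passed with the length trend removed. Cdkn1a, the cell cycle inhibitor p21, was at 50.7, 59.3 and 56.4 CPM against 50.5, 36.8 and 30.4 CPM. The lowest TCF3-labelled library and TCF12 library 1 were nearly level, and the log2 fold change was 0.51 ± 0.13 SE, or 0.72 ± 0.09 without TCF12 library 1 (edgeR adjusted p 0.014 and 6.7e-07, and 0.067 without TCF3 library 2).

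Outside the lists, Aqp8 (chr7:123462291-123468004, plus strand), a water channel, was at 20.1, 22.9 and 22.8 CPM against 2.62, 2.05 and 2.50 CPM (log2 fold change 3.20 ± 0.14 SE, edgeR adjusted p 4.1e-11). Nxf7 (chrX:135579555-135598777, minus strand), of the family of nuclear RNA export factors, was at 29.1, 36.9 and 32.8 CPM against 6.30, 5.66 and 5.89 CPM (2.47 ± 0.13 SE, 6.8e-10). Both also passed with only the 6 libraries. Genes were ranked by size of difference without TCF12 library 1, while the 2 ranges that follow are from the fit of 21 libraries. The other genes with the largest differences upwards were Serpinb6c, Nostrin, Habp2 and Phf11d, between 2.36 and 2.94. Of these, Serpinb6c and Phf11d belong to families of similar neighbouring genes whose reads may be shared. Downwards they were Zfp467, AI661453, Cyp2b23, Snord52, Adamts15, Klhl14 and Arhgef19, between -1.26 and -0.90. Zfp467, a zinc finger gene, was at 4.55, 3.97 and 5.37 CPM against 10.6, 10.2 and 12.5 CPM (-1.26 ± 0.14 SE, edgeR adjusted p 2.9e-06). Snord52 is a small nucleolar RNA within another transcript, where reads cannot be assigned with certainty.

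The other heterodimer line gave a measure of how far such lines differ. The TCF12-labelled libraries differed from the TCF4 dimer line at 464 genes (3.24%), or 687 (4.76%) without TCF12 library 1, and the TCF3-labelled libraries from the TCF4 dimer line at 2819 (19.7%) and 5828 (40.4%). These comparisons share libraries with the main one. The uninduced monomer line against the parental line shares none, and there the lines differ in the integrated construct and in doxycycline. In it 1504 of the 14311 genes were higher (10.5%) and 1350 lower (9.43%). Of the 339 genes at least doubled in the TCF3-labelled libraries, 246 (72.6%) were also higher in the uninduced monomer line, which is 16.4% of the genes higher there, and 10 (2.95%) were lower. Of all 1215 higher genes 692 (57.0%, or 46.0% of those higher there) were also higher in the uninduced monomer line, and of the 892 lower genes 282 (31.6%, or 20.9%) were also lower. Uninduced monomer library 1 stood apart from its replicates, with its 10 most abundant genes holding 9.63% of its counts against 6.01% and 6.08%. Without it 1158 genes were higher (8.09%) and 1031 lower (7.2%) in that line than in the parental one. Among the 339 doubled genes 230 (67.8%, or 19.9% of those higher there) were then also higher, and of the 1215 it was 620 (51.0%, or 53.5%). H19 was not among the genes shared with all libraries included, with means of 0.847 CPM in the uninduced monomer line and 0.877 CPM in the parental line.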

How the data were processed

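RNA-seq was done on embryoid bodies in 21 samples, 7 groups of 3 taken from the labels. The authors deposited, for each sample, a table of unscaled counts by gene symbol. FastQC, TopHat2 and HTSeq and the build mm10 (GRCm38) are named in the submitters' processing notes, without versions; counting options, strand use and annotation are not given in the sources used here. Dates had replaced 25 gene symbols in the files of 18 samples, so rows were joined by position.

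Counts were fitted with edgeR 4.0.16 (R 4.3.3; limma 3.58.1), with TMM factors, filterByExpr (count 10, total 15) and the quasi-likelihood F-test over all 21 libraries, then over 20 without TCF12 library 1, with Benjamini-Hochberg adjustment and a threshold of 0.05. A gene passes where it passed in both. Standard errors derive from the F statistic. CPM are counts scaled by TMM-adjusted library size, and 3 counts are taken as the lowest level shown. Floors and intervals cover counting error only, because amplified reads are not independent molecules. Depth is given with the results. Lengths, coordinates and chromosomes came from GENCODE M21 (GRCm38), matched by symbol (97.2% of tested genes), and promoters from RefSeq (GRCm38.p6). Fits were tested on simulated counts.

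The members and the gene lists were chosen with earlier results of these data known. Named were the 10 largest differences in each direction (passing, not overlapping, a mean of at least 5 CPM, no clone, Gm or pseudogene names), the 5 smallest p, up to 6 passing genes of each of 32 lists, 3 genes of each chromosome named and the construct genes. Alternatives were DESeq2 1.42.0, limma voom with sample weights, other scalings and filters, fits of fewer libraries, a length correction, the replicate number as a block, and leaving out each library. Leaving out the monomer and homodimer libraries, uninduced monomer library 1, or TCF12 library 1 with it, was chosen after seeing the data. Results for some genes are not reported here.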

Additional observations from a re-analysis of the deposited data

How the results depend on the processing

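The fit of 21 libraries called 2686 genes (1390 higher and 1296 lower in the TCF3-labelled libraries, 470 with at least a doubling). Fitting only the 6 libraries called 236 (223 higher, 13 lower, 187 with a doubling). Fitting these without TCF12 library 1 called 3094 (1735 higher, 1359 lower). Removing the trend with transcript length gave 826 (625 and 201), of which 764 were among the 2686 in the same direction, and fitting only the parental and heterodimer libraries gave 1091 (731 and 360), of which 1086 were. Leaving out each of the 6 libraries gave 1455 to 4986 genes, 950 to 2458 higher, 440 to 2528 lower and 415 to 751 with a doubling. Limma voom with sample weights called 2086 higher, and scaling by library size alone called 768 lower. DESeq2 (2902), RLE factors (2718), no filter (2799) and at least 1 CPM in 3 libraries (2686) moved the total by less than 1.5 times. The cause of these changes was not tested. The replicate numbers did not pair the libraries (correlations of same-numbered deviations 0.04, -0.08 and 0.09), and adding that number to the model as a replicate block gave 2691 genes, or 3720 without TCF12 library 1. None of the 149 named genes changed direction in an alternative where it passed there or in the fit of 21 libraries. Most of them were named because they passed in both fits with the same direction. With only the 6 libraries 58 named genes kept their side of the threshold and 89 no longer passed. Without TCF12 library 1 among these libraries it was 139 and 9, and with the length trend removed 100 and 49. Depth limits genes near 0.25 CPM, such as Prdm14 and Cer1.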
